A study of Mus musculus with 6 samples.

Results

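The genes described here are beta-catenin, its negative regulator Apc, and 8 genes that canonical Wnt signalling is known to switch on: Axin2, Nkd1, Rnf43, Znrf3, Notum, Lgr5, Tbx3 and Sp5. They were taken by gene name from the expression table, which holds all 10 of these names among its 34745 genes, and all 10 passed the filter on low counts. RNA came from 6 tumours, 3 grown under a normal diet (ND 1 to ND 3) and 3 under a high cholesterol diet (HCD 1 to HCD 3). In both groups the hosts were C57BL/6J mice, and cultured cells labelled as B16F10, a mouse melanoma line, had been injected under the skin of the right flank. No transgene, drug or other agent is named for either group, and neither the age of the mice nor the time on the diet is stated in the labels. The labels number the tumours within a diet without saying how animals were assigned to them, so each p-value reflects no more than the spread among these samples, which may be technical.

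In canonical Wnt signalling, a Wnt ligand binds a Frizzled receptor and its partner Lrp5 or Lrp6, which disables the complex of Apc, Axin and kinases that otherwise marks beta-catenin for destruction. Beta-catenin then enters the nucleus and acts with TCF and LEF factors on target genes, many of which encode inhibitors of the same pathway and so form negative feedback loops. In the liver this signalling marks hepatocytes around the central vein, and in liver tumours activating mutations of the beta-catenin gene are common. Beta-catenin also has a separate role at cell junctions, where it links cadherins to alpha-catenin.

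Libraries held 20351637 to 26228074 counts, and levels are given as CPM, the count of a gene scaled to the library total times its TMM factor. A tumour level averages over all cells of the piece, so fewer cells of a type and less RNA per cell cannot be told apart. The labelled cell type was set against its defining markers. Of 7 pigment cell genes, Tyr, Dct and Mlana had no count in any library and only Pmel and Mitf had counts in all 6. The summed level of the pigment list was 4.197 to 7.41 CPM under ND and 5.80 to 11.1 CPM under HCD. All 8 genes of the hepatocyte list, among them Alb, Afp and Hnf4a, had counts in every library, with a summed level of 7046 to 8472 CPM under ND and 6727 to 8890 CPM under HCD. The tumours are therefore called tumours labelled as B16F10. Skeletal muscle genes were uneven: the 5 listed genes summed to 1512 CPM in ND 2 and 1574 CPM in HCD 1, to 175 CPM in HCD 2 and to 8.04 to 19.99 CPM in the other 3 libraries.

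Levels of the 10 genes spanned a wide range, with Nkd1 and Sp5 near the top of the table and Notum far lower. On the deposited FPKM scale, which divides a count by gene length and library total, Nkd1 averaged 77.6 ± 17.9, Sp5 68.4 ± 11.8 and Axin2 34.0 ± 4.04 FPKM (SD, n = 6 each). Nkd1 ranked 424, Sp5 505 and Axin2 1196 among the 34745 genes of the table. The beta-catenin gene Ctnnb1 averaged 62.6 ± 6.94 FPKM and ranked 555, so the means of Nkd1 and Sp5 lay above that of beta-catenin itself, with overlapping ranges. Rnf43 (13.5 ± 2.13 FPKM), Lgr5 (13.2 ± 1.21 FPKM) and Znrf3 (11.7 ± 1.45 FPKM) followed, then Tbx3 (6.995 ± 1.56 FPKM), Apc (5.15 ± 0.197 FPKM) and Notum (1.84 ± 1.198 FPKM). In this order the ranges over the 6 libraries did not overlap between Ctnnb1 and Axin2, between Axin2 and Rnf43, or between Apc and Notum, and each other pair of neighbours overlapped.

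The order at the top depends on the gene length used. The length implied by the deposited FPKM had a median of 1.25 times the merged exon length of the GENCODE M21 annotation over 10327 genes with more than 1000 counts in all, and for Ctnnb1 it was 9808 against 5192 bases. For Sp5, which has a single annotated transcript, both lengths were 2100 bases. With merged exon lengths Ctnnb1 came first, at 118 ± 13.4 CPM per kilobase, above Nkd1 at 75.8 ± 17.2, Sp5 at 68.5 ± 12.0 and Axin2 at 53.0 ± 6.03 CPM per kilobase (SD, n = 6 each), and its range did not overlap that of Nkd1. The order of the other 9 genes was the same on both scales.

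**Figure D1:**
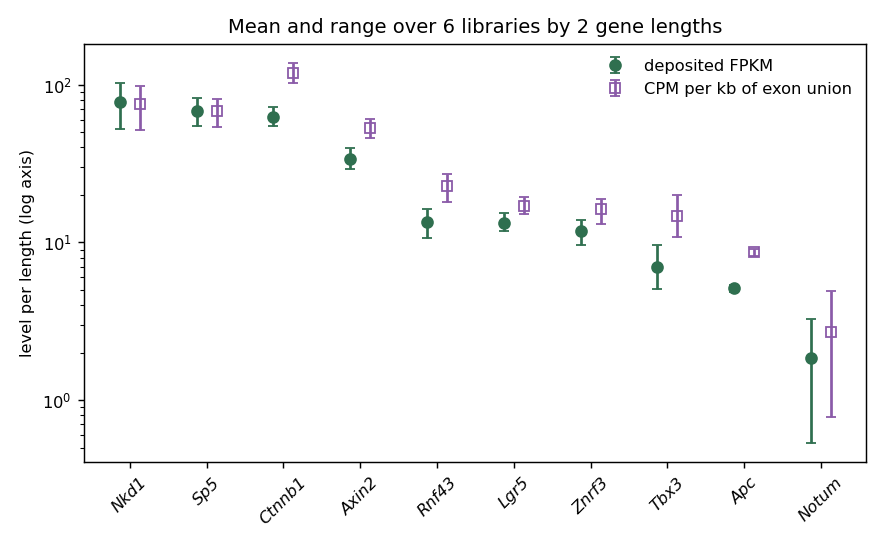
Level per length of the 10 genes on a log axis, as deposited FPKM (filled circles) and as CPM per kilobase of merged exons (open squares); points are means and bars the lowest and highest of 6 libraries. Ctnnb1 lies below Nkd1 and Sp5 by FPKM and is first by merged exon length, while Notum is lowest on both scales.

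Sp5 and Axin2 show how differently the start regions of strongly expressed target genes can read, and Rnf43 is given because its pattern over the 6 libraries, though not its level, was the closest to that of Axin2 among the 10 genes. The 3 windows are RefSeq promoters on build GRCm38.p6, from 250 bases before to 50 bases after the start, all on the plus strand. They were searched for the TCF core CTTTG followed by a pair of A or T letters (that is, CTTTGAA or CTTTGAT or CTTTGTA or CTTTGTT) on both strands, and matches are in capitals.
Sp5, chr2:70474673-70474972: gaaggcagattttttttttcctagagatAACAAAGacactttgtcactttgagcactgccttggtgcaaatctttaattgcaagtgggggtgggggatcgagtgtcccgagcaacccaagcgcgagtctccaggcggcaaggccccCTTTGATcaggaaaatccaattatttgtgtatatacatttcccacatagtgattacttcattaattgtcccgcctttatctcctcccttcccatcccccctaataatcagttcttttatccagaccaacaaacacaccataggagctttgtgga
Axin2, chr11:108920099-108920398: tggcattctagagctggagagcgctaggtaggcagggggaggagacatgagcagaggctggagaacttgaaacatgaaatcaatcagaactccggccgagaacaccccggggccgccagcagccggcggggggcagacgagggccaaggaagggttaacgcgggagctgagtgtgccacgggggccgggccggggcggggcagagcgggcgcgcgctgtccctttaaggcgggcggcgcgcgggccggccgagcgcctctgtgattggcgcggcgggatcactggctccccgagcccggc
Rnf43, chr11:87662837-87663136: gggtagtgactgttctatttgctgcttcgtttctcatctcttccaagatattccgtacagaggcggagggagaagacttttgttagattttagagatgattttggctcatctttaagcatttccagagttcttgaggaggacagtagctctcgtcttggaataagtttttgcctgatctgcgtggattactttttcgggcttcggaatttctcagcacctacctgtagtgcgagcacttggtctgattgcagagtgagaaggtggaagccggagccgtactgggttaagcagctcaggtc
The Sp5 window held 2 matches, CTTTGTT on the minus strand beginning 222 bases and CTTTGAT on the plus strand beginning 104 bases before the start. The windows of Axin2 and Rnf43 held none, nor did the second window of Rnf43, the window of Nkd1 or the 2 windows of Ctnnb1. Of 32851 promoters of the same length, 16.9% held at least 1 match, and of 27025 genes 18.9% had a match in at least 1 promoter. Sequence outside these windows was not searched, so a window without a match does not show that a gene lacks TCF sites.

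Between the diets, none of the 10 genes was called by the quasi-likelihood test of edgeR at an adjusted p of 0.05, a threshold that 0% of the 15539 tested genes passed, higher or lower. Notum was the only one with an unadjusted p under 0.05, and lay in the higher direction, as did 1.81% of all tested genes (3.48% lower, 5.3% either way). In none of the 10 did the 3 HCD libraries lie all above or all below the 3 ND libraries, which they did for 11.1% of tested genes (4.75% above, 6.36% below). Fold changes of HCD over ND were positive for 7 of the 10, against 53% of all tested genes, with a median log2 fold change of 0.15 against 0.01. DESeq2 called 0 of the 10, with no adjusted p for Notum, and over all genes with an adjusted p it called 6 of 10413 (0.0576%), all lower under HCD. At an unadjusted p under 0.05 it had 2 of the 10 (Notum and Tbx3), against 4.89% of all genes. With limma-voom 0 of the 10 and 0% of all genes were called, and 1 of the 10 (Notum) had an unadjusted p under 0.05, against 4.96% of all genes. The 95% interval of the log2 fold change was narrowest for Apc, -0.14 to 0.15, and widest for Notum, 0.03 to 2.66.

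**Figure D2:**
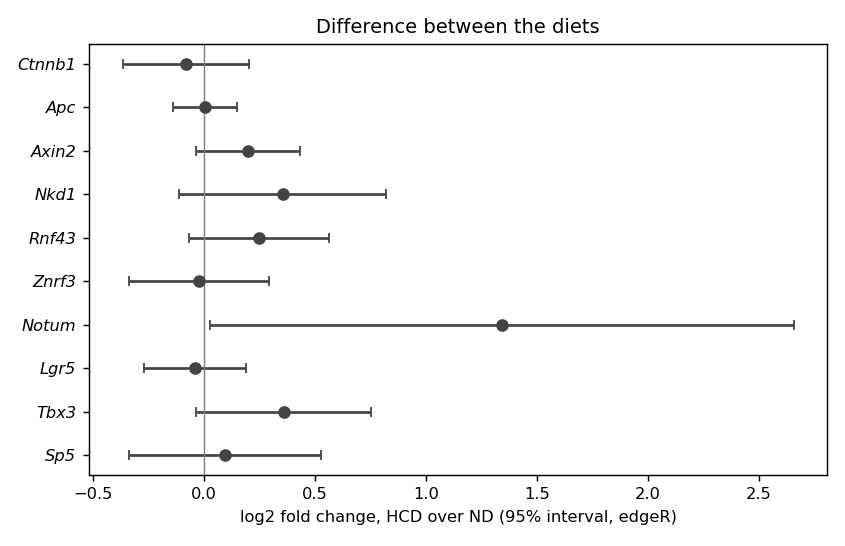
Log2 fold change of HCD over ND (horizontal axis) for each of the 10 genes, with 95% intervals from edgeR on 3 libraries per diet. Every interval but that of Notum includes 0, and Apc has the narrowest.

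Ctnnb1 encodes beta-catenin (ENSMUSG00000006932, chromosome 9, 120929216 to 120960507, GRCm38). Its level was 655, 529 and 711 CPM in ND 1 to ND 3 and 567, 652 and 570.1 CPM in HCD 1 to HCD 3. The lowest library and the highest were both ND tumours, and the HCD libraries lay between them. The means were 632 ± 93.6 and 596 ± 48.2 CPM (SD, n = 3 each). HCD differed from ND by -0.08 on the log2 scale (95% interval -0.37 to 0.20, edgeR adjusted p = 0.895).

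Apc, the scaffold of the destruction complex (ENSMUSG00000005871, chromosome 18, 34220924 to 34322552), varied least of the 10. It had 141, 131 and 146 CPM under ND and 139, 142 and 138 CPM under HCD, in the order of their numbers. The highest library was 1.12 times the lowest, and 5.25% of tested genes had a narrower range. The log2 fold change was 0.0031, the closest to 0 of the 10.

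Axin2 encodes a scaffold that rebuilds the destruction complex and is a widely used readout of beta-catenin activity (ENSMUSG00000000142, chromosome 11, 108920349 to 108950783). It had 265, 299 and 252 CPM in ND 1 to ND 3 and 335, 277 and 325 CPM in HCD 1 to HCD 3. HCD 1 and HCD 3 were the highest libraries, while ND 2 lay above HCD 2, so the groups overlapped. The log2 fold change was 0.20 ± 0.10 SE (95% interval -0.04 to 0.43, edgeR adjusted p = 0.839).

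Nkd1, which encodes an inhibitor that binds dishevelled inside the cell (ENSMUSG00000031661, chromosome 8, 88521354 to 88594884), spread more widely. Its level was 315, 361 and 234 CPM under ND and 449, 301 and 413 CPM under HCD. ND 3 was the lowest library and HCD 1 the highest, at 1.91 times its level. On the log2 scale HCD differed from ND by 0.35 ± 0.20 SE (95% interval -0.11 to 0.82, edgeR adjusted p = 0.839).

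Rnf43 and Znrf3 encode related ubiquitin ligases of the cell membrane that remove Frizzled receptors. Rnf43 (ENSMUSG00000034177, chromosome 11, 87662722 to 87735539) had 135, 157 and 118 CPM under ND and 178, 139 and 171 CPM under HCD. Znrf3 (ENSMUSG00000041961, chromosome 11, 5276324 to 5444847) had 136, 130.5 and 119.9 CPM under ND and 149, 103 and 129 CPM under HCD. HCD 1 was the highest library for both, and the lowest was ND 3 for Rnf43 and HCD 2 for Znrf3. The log2 fold changes were 0.25 (95% interval -0.07 to 0.56) for Rnf43 and -0.02 (95% interval -0.34 to 0.29) for Znrf3, and neither was called. Whether the 2 fold changes differ from each other was not tested.

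Notum encodes a secreted enzyme that inactivates Wnt ligands by removing their lipid (ENSMUSG00000042988, chromosome 11, 120653788 to 120661175). It had 50, 183 and 39 counts in ND 1 to ND 3 and 231, 109 and 242 counts in HCD 1 to HCD 3. These are 2.23, 6.92 and 1.89 CPM under ND and 11.1, 5.27 and 11.8 CPM under HCD. ND 1 and ND 3 were low, HCD 1 and HCD 3 high, and ND 2 lay above HCD 2. The exact 95% Poisson interval, which covers counting error only, was 1.35 to 2.59 CPM in ND 3 and 10.3 to 13.4 CPM in HCD 3, so the difference between these libraries was larger than counting error. The highest library was 6.23 times the lowest, a wider range than in 96.8% of tested genes.

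The mean level of Notum was 3.68 ± 2.81 CPM under ND and 9.40 ± 3.59 CPM under HCD (SD, n = 3 each). The log2 fold change was 1.34 ± 0.56 SE, and its edgeR adjusted p was 0.839. Without ND 2 it was 2.19, without both ND 2 and HCD 1 it was 2.05, and without ND 3 it was 1.03. Exons of Notum overlap those of Notumos and Myadml2os on the other strand, which had 7 to 42 and 1 to 9 counts per library. No source used here gives the strand setting of the counting, so reads of these genes cannot be told apart where they overlap. The same holds for Axin2 and Gm11670, which had 16 to 36 counts per library, and for Ctnnb1 and Ulk4, which had 3 to 10.

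Lgr5 encodes a receptor for R-spondins and marks several stem cell populations (ENSMUSG00000020140, chromosome 10, 115450311 to 115587780). The 3 ND tumours lay within a narrow range, at 177, 177 and 179 CPM (SD 0.958 CPM). The HCD tumours lay on both sides of them, at 199, 155 and 164 CPM. On the log2 scale the difference was -0.04 (95% interval -0.27 to 0.19).

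Tbx3 and Sp5 encode transcription factors. Tbx3 (ENSMUSG00000018604, chromosome 5, 119670669 to 119684724) had 71.5, 100.3 and 82.7 CPM under ND and 132, 92.7 and 102 CPM under HCD, with a log2 fold change of 0.36 (95% interval -0.04 to 0.75, edgeR adjusted p = 0.839). HCD 1 was high, and ND 2 lay above HCD 2, as for Axin2. Exons of Tbx3 overlap those of Tbx3os1 on the other strand, which had 90 to 216 counts per library against 1601 to 2729 for Tbx3. Sp5, which represses other targets of the pathway (ENSMUSG00000075304, chromosome 2, 70474923 to 70477729), had 164, 138 and 116 CPM under ND and 169, 113 and 163 CPM under HCD. The difference was 0.09 on the log2 scale (95% interval -0.34 to 0.53), and each diet held both a high and a low library.

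**Figure D3:**
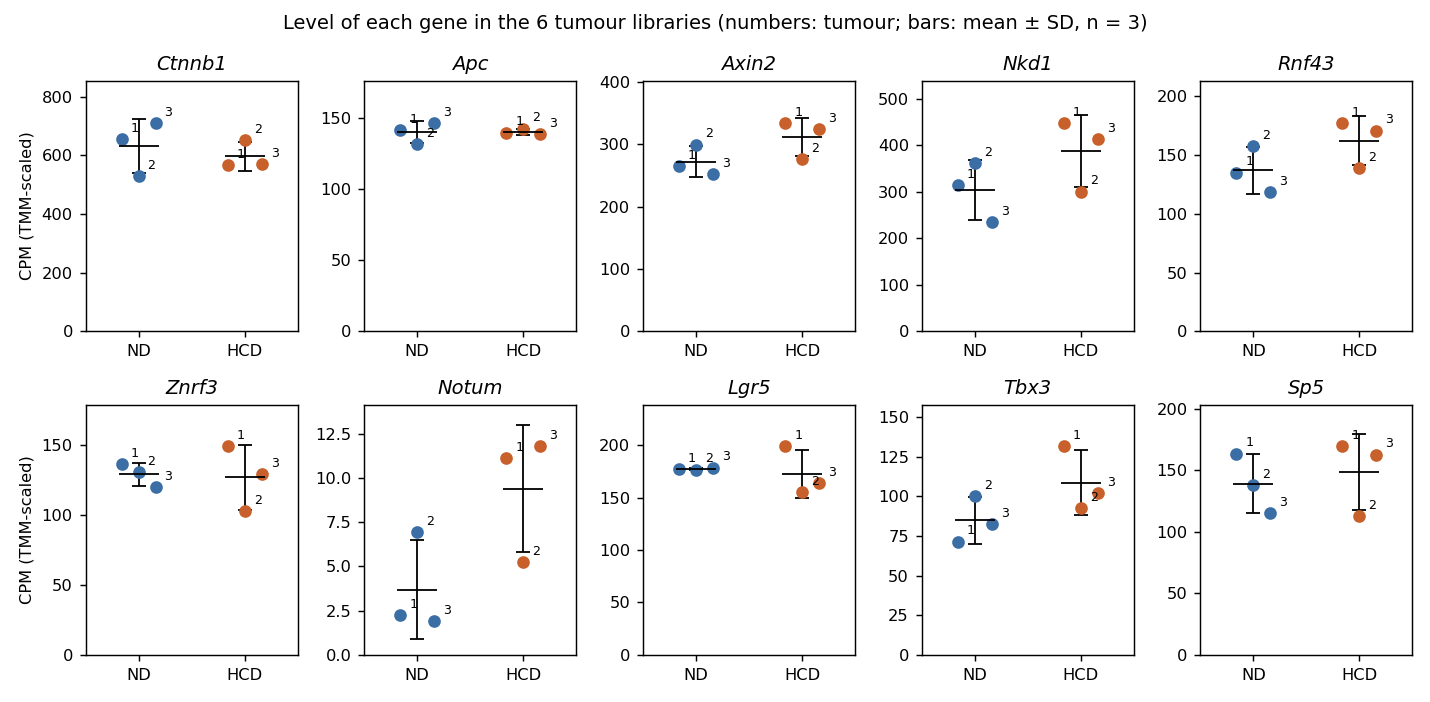
CPM of each gene (vertical axes, each from 0) in the 3 ND and 3 HCD tumours, with tumour numbers beside the points and mean ± SD as bars. The groups overlap in all 10 panels, and for Notum the 2 highest tumours are HCD 1 and HCD 3.

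For 5 of the 8 targets (Axin2, Nkd1, Rnf43, Tbx3 and Notum) the 3 highest libraries were HCD 1, HCD 3 and ND 2, a set that was highest in 6.75% of all tested genes. For Ctnnb1 and Apc the highest were the other 3 libraries, ND 1, ND 3 and HCD 2, as in 6.04% of tested genes. By FPKM the set for Apc was ND 3, HCD 2 and HCD 1 instead, and its exact 95% Poisson intervals in ND 1 and HCD 1, 136 to 146 CPM and 134 to 145 CPM, overlapped. The other 3 targets, Lgr5, Znrf3 and Sp5, had other sets. This pattern was noticed in the data and was not tested, and genes of a library share its depth and cell make-up. HCD 1 was the highest library for 7 of the 8 targets, all but Notum. ND 3 was among the lowest pair for 7 of the 8, all but Lgr5. HCD 2 was the lowest library for Lgr5, Znrf3 and Sp5. The shares of all tested genes that were highest or lowest in these single libraries are not given here. These counts therefore do not tell a trait of the targets from a trait of the libraries. The median deviation of the 8 targets from their means, in log2 CPM, was 0.26 in HCD 1, 0.18 in HCD 3 and 0.06 in ND 2, and -0.12 in ND 1, -0.13 in HCD 2 and -0.25 in ND 3.

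**Figure D4:**
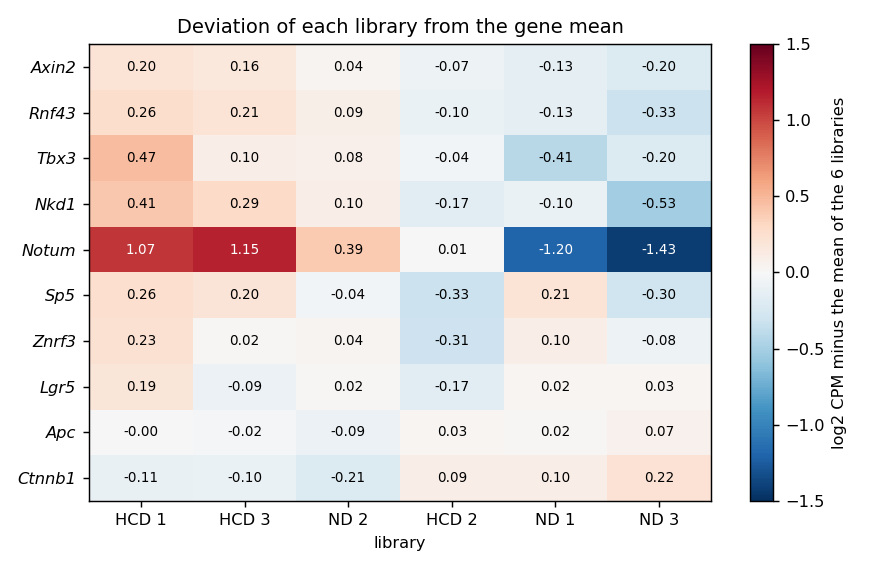
Deviation of each library (columns) from the mean log2 CPM of each gene (rows), with a prior count of 2. Axin2, Rnf43, Tbx3, Nkd1 and Notum are above their means in HCD 1, HCD 3 and ND 2, whereas Ctnnb1 is below its mean in the same 3 libraries.

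Summed markers of other cells also differed between libraries, and their part in the pattern was not tested. The 5 muscle genes, all with counts in every library, were high in HCD 1 and ND 2 and summed to 10.6 CPM in HCD 3. The 7 T cell genes summed to 15.7, 56.2 and 71.7 CPM in ND 1 to ND 3 and 79.7, 116 and 46.8 CPM in HCD 1 to HCD 3, and the 5 macrophage genes to 285 to 581 CPM under ND and 388 to 920 CPM under HCD. HCD 2 had the highest T cell, macrophage and endothelial sums of the 6 libraries, the endothelial sum being 324 CPM against at most 180.1 CPM elsewhere. The 5 keratinocyte genes summed to 29.6 CPM in HCD 3 and to 5.05 to 7.57 CPM in the other libraries. Most of the sum in HCD 3 was Krt14 and Krt5, at 13.4 and 11.8 CPM, and Krt1 was also highest there, at 0.828 CPM. Krt10 was instead highest in ND 3 (3.35 CPM) and Trp63 in HCD 1 (1.01 CPM). The 4 adipocyte genes summed to 24.6 CPM in HCD 3 and 60.6 CPM in HCD 2, the lowest and the highest library. Most of the adipocyte sum was Fabp4, at 23.8 and 56.1 CPM, and Cidec had the same lowest and highest library. Plin1 was also highest in HCD 2 but lowest in ND 3, without a count. Adipoq was highest in HCD 1 (1.49 CPM) and lowest in ND 1 (0.0447 CPM). The 7 fibroblast genes summed to 2730 to 3984 CPM under ND and 2520 to 3664 CPM under HCD. Dcn, a large part of this sum, was lowest in HCD 2 (1404 CPM) and highest in ND 1 (1946 CPM). Each other gene of the fibroblast list was highest in HCD 2. Hepatocyte genes summed to 7290 CPM in HCD 1, 8890 CPM in HCD 3 and 7046 CPM in ND 2, and to 8472 CPM in ND 1, 7809 CPM in ND 3 and 6727 CPM in HCD 2.

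By a fixed measure of likeness, the root mean square difference of centred log2 CPM over the 6 libraries, the genes closest to Axin2 among 14045 genes of at least 1 CPM were Fahd1 (0.02), Wdr12 (0.02) and Oxa1l (0.03). Rnf43 was the closest of the 10, at 0.06, with 55 other genes closer. Tbx3 lay at 0.16 and Nkd1 at 0.17, with 3608 and 4440 genes closer, since the measure also counts the size of the swings. Notum, with the widest swings, lay at 0.87.

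Among the other genes of the pathway, 0 of the 88 tested members of 10 lists were called by edgeR, and 7 (7.95%) had an unadjusted p under 0.05, against 5.3% of all tested genes. The HCD libraries lay all above the ND libraries for 1 of 16 receptor, 2 of 14 TCF and cofactor and 1 of 6 central vein genes. They lay all below for 2 of 16 receptor genes and 2 of 11 other targets, and the remaining lists had no such gene. Over all tested genes, 11.1% did not overlap (4.75% above, 6.36% below). Of 21 genes for ligands and their secretion, 7 had enough counts to be tested, 3 with positive and 4 with negative fold changes and a median log2 fold change of -0.00097. Wnt6 had the highest level per length, 22.04 ± 8.69 FPKM (SD, n = 6), with 66.9, 59.2 and 46.8 CPM under ND and 114 (HCD 1), 45.9 and 61.8 CPM under HCD. Wnt5a, a ligand best known for signalling without beta-catenin, had 151, 90.6 and 141 CPM under ND and 94.4, 77.2 and 64.7 CPM under HCD. Its log2 fold change was -0.69 ± 0.22 SE (unadjusted p = 0.0148, edgeR adjusted p = 0.839), and ND 2 lay below HCD 1. Porcn, which attaches the lipid of Wnt proteins, differed by -0.41 ± 0.23 SE on the log2 scale.

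Receptors were broadly present. Of 18 receptor and dishevelled genes 16 were tested, 6 with positive and 10 with negative fold changes (median -0.02). By deposited FPKM, Fzd10 was the receptor with the highest level per length, 32.8 ± 9.44 FPKM. With merged exon lengths Lrp5 came before it, at 33.5 against 32.8 CPM per kilobase. Fzd10 also had the smallest p of the list. Its level was 123, 100.4 and 162 CPM under ND and 91.6, 80.3 and 83.2 CPM under HCD, so all 3 HCD libraries lay below the 3 ND libraries. For Fzd10 the difference was -0.60 ± 0.17 SE on the log2 scale (unadjusted p = 0.00924, edgeR adjusted p = 0.839). Fzd1 lay the other way, at 21.98 ± 1.42 CPM under ND and 26.4 ± 2.49 CPM under HCD (SD, n = 3 each). Its groups did not overlap in CPM, with 23.9 CPM in HCD 3 against 23.6 CPM in ND 2. By FPKM they did, with 5.59 FPKM in HCD 3 and 5.66 FPKM in ND 2. The log2 fold change of Fzd1 was 0.26 ± 0.10 SE (unadjusted p = 0.0403, edgeR adjusted p = 0.839).

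R-spondin genes, whose products spare Frizzled receptors from Rnf43 and Znrf3, were close to the detection limit. Over all 6 libraries Rspo1, Rspo2, Rspo3 and Rspo4 had 15, 3, 52 and 3 counts, and none was tested. Of their receptors besides Lgr5, Lgr4 averaged 10.2 ± 1.10 FPKM and Lgr6 0.329 ± 0.167 FPKM. Extracellular inhibitors were mostly low: 5 of the 16 listed genes averaged at least 1 FPKM. Sfrp1, which binds Wnt proteins, led them at 4.71 ± 2.70 FPKM, from 4.19 CPM in HCD 3 to 38.4 CPM in HCD 2. Among the 9 tested inhibitors 6 fold changes were positive, with a median of 0.24, and the smallest p were those of Dkk2 (log2 fold change 0.97 ± 0.50 SE) and Apcdd1 (0.36 ± 0.28 SE), both below 3 CPM in every library.

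No listed gene of the destruction complex was called between the diets, as for all tested genes. The log2 fold changes ran from -0.17 to 0.53, and evenness between the diets was not tested. All 14 listed genes were tested, 6 with positive and 8 with negative fold changes and a median of -0.01. Tnks2, a tankyrase that marks Axin for breakdown, had the highest level per length, 68.6 ± 6.37 FPKM, and a log2 fold change of -0.15. The smallest p of the list were those of Tnks (-0.15 ± 0.09 SE) and Amer1 (-0.17 ± 0.11 SE).

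Of the nuclear partners of beta-catenin, Tcf7 was the most abundant per length, at 38.4 ± 5.57 FPKM. Its level was 151, 121 and 109 CPM under ND and 136, 106 and 151 CPM under HCD, with a log2 fold change of 0.05 ± 0.16 SE. Tcf7 is also expressed by T cells, whose 7 listed genes had counts in every library, and their part in the level of Tcf7 was not tested. Bcl9, a coactivator that binds beta-catenin, had 64.3, 65.7 and 67.6 CPM under ND and 71.1, 72.0 and 78.5 CPM under HCD, without overlap (difference 0.17 ± 0.07 SE on the log2 scale, unadjusted p = 0.0426, edgeR adjusted p = 0.839). Ctnnbip1, which blocks the binding of beta-catenin to TCF factors, also had no overlap, with a log2 fold change of 0.32 ± 0.17 SE. Of the 14 genes of this list 7 fold changes were positive and 7 negative.

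At the junctions, Ctnna1 (alpha-catenin) averaged 126.6 ± 7.09 FPKM, the highest of its list, and Jup, a close relative of beta-catenin, 17.7 ± 1.63 FPKM. N-cadherin (Cdh2) averaged 7.74 ± 1.38 FPKM against 0.508 ± 0.135 FPKM for E-cadherin (Cdh1), 0.139 ± 0.037 FPKM for Cdh3 and 1.36 ± 0.096 FPKM for Ctnnd1. The length implied by the FPKM was 22612 bases for Ctnnd1, against 7319 bases of merged exons. For Ctnna1 it was 3698 against 6425 bases, so the gap between these genes is narrower with merged exon lengths. All 6 were tested, 4 with negative fold changes, and the median was -0.13. The smallest unadjusted p was 0.0827, that of Cdh2 (log2 fold change -0.32 ± 0.16 SE).

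Of 13 genes known as Wnt targets in other tissues 11 were tested, 4 with positive and 7 with negative fold changes and a median of -0.10. Id2, an inhibitor of helix-loop-helix factors, had the highest level per length, 290.2 ± 37.9 FPKM. Sox4 had 127, 98.7 and 106 CPM under ND and 94.7, 70.1 and 73.6 CPM under HCD. All 3 HCD libraries of Sox4 lay below the 3 ND libraries, with a log2 fold change of -0.47 ± 0.14 SE (unadjusted p = 0.0123, edgeR adjusted p = 0.839). The adhesion receptor gene Cd44 also did not overlap between the diets, at 1026 ± 61.5 CPM under ND and 846 ± 91.2 CPM under HCD (difference -0.28 ± 0.10 SE on the log2 scale, unadjusted p = 0.0235, edgeR adjusted p = 0.839).

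Among 9 genes that beta-catenin maintains in hepatocytes around the central vein, 3 averaged at least 1 FPKM: Lect2 at 74.3 ± 16.3, Glul at 67.2 ± 16.7 and Oat at 66.9 ± 6.24 FPKM. The last was named after its values were seen. Glul, which encodes glutamine synthetase, had 179, 222 and 206 CPM under ND and 343, 263 and 279 CPM under HCD, so that its 3 HCD libraries lay above the ND libraries. The difference was 0.55 ± 0.12 SE on the log2 scale (unadjusted p = 0.00325, edgeR adjusted p = 0.839). Like Axin2, Nkd1 and Tbx3, both Glul and Lect2 were highest in HCD 1, and the share of all tested genes highest there is not given here. Unlike Glul, Lect2 overlapped between the diets, with 69.9, 60.9 and 58.6 CPM under ND and 85.0, 43.4 and 73.1 CPM under HCD. Slc1a2 had a log2 fold change of 0.60 ± 0.26 SE, at 0.580 ± 0.197 FPKM. Of the tested genes of this list, 4 of 6 fold changes were positive, with a median of 0.19. Of 9 genes that mark the portal side of the liver lobule, 3 had enough counts to be tested. Only 2 averaged at least 1 FPKM, Ass1 at 65.9 ± 18.6 FPKM and Arg1 at 20.05 ± 10.3 FPKM. Their log2 fold changes were 0.06 ± 0.29 and 0.21 ± 0.59 SE.

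**Figure D5:**
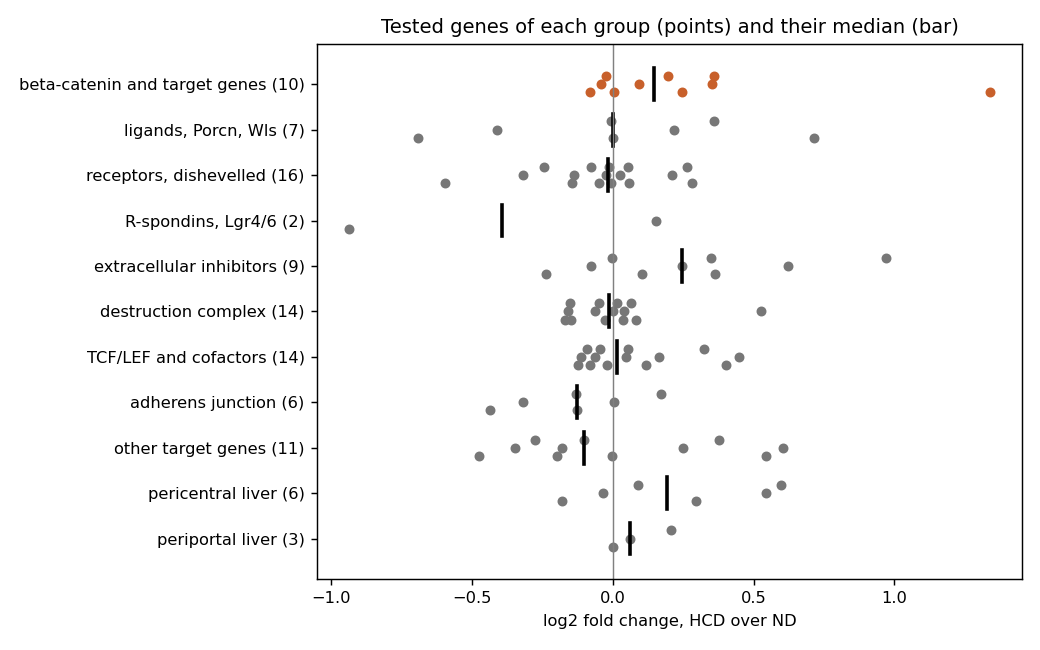
Log2 fold change of HCD over ND (horizontal axis) for the tested genes of each group (points, number in brackets) with the group's median (bar). None of the genes shown passed the test; the point at 1.34 is Notum.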

How the data were processed

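RNA was isolated on columns from the 6 tumours, and TruSeq libraries were sequenced from both ends, per the labels' protocols. For each gene the authors deposited a raw read count and an FPKM value in every sample. The submitters' processing notes name mm10, CASAVA 1.8, TopHat2 2.0.9, HTSeq and edgeR without saying what each did. For a given gene, the deposited FPKM is the count divided by the library total and by a length that is the same in all samples. Each sample had 1 column of each kind, 0 other sample columns were present, and the labels name no batch.

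Counts were tested in R 4.3.3 with edgeR 4.0.16 (glmQLFit in its legacy form and glmQLFTest, TMM factors, filterByExpr with a minimum count of 10 and total of 15, diet as the only term). Benjamini-Hochberg adjustment covered all 15539 genes that passed, and the fit was tested on simulated data. All p-values are two-sided, and fold changes use a prior count of 0.125. A count of 0 in 1 library allows up to 0.113 to 0.146 CPM (3 counts, counting error only). Coordinates, merged exons and overlaps came from GENCODE M21 (GRCm38, the same build as mm10), in which 34267 gene IDs of the table were found. Promoters came from RefSeq (GRCm38.p6), in which 5 of the 10 genes matched by symbol: Ctnnb1, Axin2, Nkd1, Rnf43 and Sp5. Alternatives used DESeq2 1.42.0 and limma 3.58.1.

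The 10 genes and the lists were chosen with earlier results of these data known. Named besides the 10 were, for each list, the gene with the highest mean FPKM and the 2 with the smallest p (all genes of lists under 8), and the 3 genes nearest to Axin2.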

Additional observations from a re-analysis of the deposited data

How the results depend on the processing

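Under 17 other settings of the fit, 0 of the 10 genes and 0 of the pathway genes passed an adjusted p of 0.05, as in the reported fit. Over all genes 0 passed in 15 of these settings, 6 (all lower) with the DESeq2 Wald test and 2 (both lower) without ND 2. The settings were DESeq2 size factors, upper quartile factors, no filter, a filter of 1 CPM, the DESeq2 Wald test, limma-voom, adjusted deviances, limma on log2(FPKM + 1) and on log2(FPKM + 0.1), a replicate block, each library left out, and, added after the data were seen, a fit without ND 2 and HCD 1, the libraries with the highest muscle sums. DESeq2 gave Notum no adjusted p. Of 170 fold changes of the 10 genes, 159 kept their sign. Besides fits that left out 1 library, Apc was -0.0034 with upper quartile factors, and without both ND 2 and HCD 1 Apc was -0.03 and Sp5 -0.01.

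Leaving out 1 library moved the log2 fold change between -0.19 and 0.0095 for Ctnnb1, -0.036 and 0.037 for Apc, 0.14 and 0.28 for Axin2, -0.15 and 0.035 for Lgr5, 0.20 and 0.50 for Tbx3, 0.20 and 0.51 for Nkd1, 0.15 and 0.36 for Rnf43, -0.16 and 0.11 for Znrf3, -0.024 and 0.26 for Sp5, and 1.03 and 2.19 for Notum. The smallest adjusted p of any of the 10 in any setting was 0.473, for Notum. The number of the 10 with an unadjusted p under 0.05 was 4 without ND 2 (Axin2, Notum, Rnf43 and Tbx3), against 8.53% of all tested genes, and 5 without HCD 2 (these and Nkd1), against 5.29%. It was 0 without ND 1 (2.37% of all genes), ND 3 (3.29%), HCD 1 (4.12%) or HCD 3 (6.23%). Without both ND 2 and HCD 1 it was 2, Notum (log2 fold change 2.05) and Tbx3, against 6.2%. For the pathway genes it ranged from 3 of 91 without ND 1 to 12 of 91 without ND 2. On log2(FPKM + 1), which understates changes of low genes, Notum had a log2 fold change of 0.87.

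With the replicate number as a block, 0 of the 10 were called, 0 had an unadjusted p under 0.05 (5.07% of all genes), and Notum had a log2 fold change of 1.54. The labels do not say whether equal numbers mean a pair. Deviations from the diet mean of same-numbered tumours correlated at -0.307, 0.14 and 0.0832 over genes, and ND 1 went best with HCD 3 (0.543). ND 2 and HCD 1, the libraries with the highest muscle sums, correlated at 0.481. Deviations within a diet depend on each other, so these correlations cannot decide whether the numbers pair the samples. Counted as CPM instead of FPKM, libraries changed rank for Ctnnb1 (4 libraries), Apc, Lgr5 and Tbx3 (2 each).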
